A study of Homo sapiens with 42 samples.

Results

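The genes described here are 34 genes that take glucose to lactate, to acetyl-CoA or into the pentose phosphate pathway. They were chosen by symbol from a list ordered by 11 pathway steps, and all 34 were found among the 50648 gene symbols that the 7 deposited count tables share. The rule names genes by pathway membership. The study sequenced RNA of 7 human acute lymphoblastic leukaemia lines, each either left untreated or kept for 4 h in L-asparaginase (1 IU/ml). This enzyme, used as a drug against the disease, splits asparagine and, more slowly, glutamine outside the cell. Nalm6, SUPB15, RS411, REH and 697 are known as B-cell precursor lines, and CEM and DND41 as T-cell lines. All groups, the untreated ones included, grew in RPMI medium with serum and added glutamine, and each group is a single established line, not a set of donors. Each of the 14 groups holds 3 libraries that the labels call independent experiments. They are named here as the tables name them, A, B and C, or 1, 2 and 3 in 697.

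Glycolysis turns glucose into pyruvate and gives ATP on the way. Lactate dehydrogenase then turns pyruvate into lactate, or pyruvate enters mitochondria, where the pyruvate dehydrogenase complex turns it into acetyl-CoA. Pyruvate dehydrogenase kinases switch that complex off by phosphorylation. The pentose phosphate pathway branches from glucose phosphate and supplies NADPH and ribose for nucleotides. Many of these genes are known targets of the hypoxia factor HIF1A and of MYC, and proliferating lymphoblasts are known for high glycolytic flux.

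The deposited counts summed to 15.07 to 77.14 M (mega counts) per library, with a median of 40.28 M. Members took 0.865% to 3.028% of them. B lineage markers summed to 913 to 2707 CPM in the untreated libraries of the 5 B-cell precursor lines, and T lineage markers to 1535 to 2380 CPM in CEM and DND41. B lineage markers also summed to 1135 to 1297 CPM in untreated DND41, where 4 of 8 stayed under 1 CPM in every library. Untreated A of Nalm6, SUPB15, RS411 and DND41 and untreated 1 of 697 were set apart, as were 3 treated libraries (SUPB15 C, REH A and RS411 B) that earlier results of these data put in doubt. In each of those 5 lines that untreated library held the lowest share of 5 small noncoding RNAs (RN7SK, RN7SL1, RPPH1, RMRP and SNORD3A) among the untreated libraries, 3.35% to 7.23% of counts. Untreated A was the lowest in REH (9.48%) and CEM (9.84%) as well. Treated A of DND41 (5.77%) was about as low as untreated A of DND41 (5.63%) and was not set apart. Counts and mean calls that change without those libraries are given both ways. In CEM every treated library was deeper (50.81 to 71.52 M) than every untreated one (22.68 to 31.6 M), and the part of depth in the CEM results was not tested. Stromal markers summed to 5.47 to 6.27 CPM in untreated and 21.3 to 23.8 CPM in treated SUPB15, with 5 of 6 under 1 CPM in every library of both groups. Myeloid markers summed to 7.75 to 14.9 CPM in untreated and 16.6 to 22.2 CPM in treated SUPB15, with 3 of 6 under 1 CPM throughout, and to 9.40 to 17.5 and 23.1 to 26.4 CPM in RS411, with 2 of 6 under 1 CPM. Treated libraries lay above the untreated ones for stromal markers in DND41 as well (35.8 to 63.8 and 71.1 to 75.4 CPM), for myeloid markers in 697 (1.37 to 3.24 and 4.13 to 4.31), and for T lineage markers in SUPB15 (5.996 to 8.31 and 11.5 to 12.4), REH (16.2 to 21.7 and 29.1 to 41.0) and 697 (21.3 to 59.1 and 67.2 to 70.0). They lay below them in Nalm6 for stromal (211 to 392 and 154 to 178) and T lineage markers (60.8 to 62.9 and 25.4 to 36.4), and in CEM for B lineage (90.4 to 107.6 and 48.9 to 72.9) and myeloid markers (1.27 to 1.71 and 0.555 to 0.866). B lineage markers in Nalm6 and DND41 and T lineage markers in CEM and DND41 were lower in every treated library too, and erythroid markers stayed under 1 CPM in sum. The part of such transcripts in the results was not tested. Fewer cells of a state and less RNA per cell cannot be told apart in these bulk samples.

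After 4 h of L-asparaginase, at least 1 member of each of the 11 steps was lower on average over the 7 lines, and the glucose transporter SLC2A3 was higher. The largest falls were in the phosphofructokinases PFKP and PFKM, the kinase PDK3, the hexokinase HK1 and the lactate dehydrogenase LDHA, by 1.87-fold (LDHA) to 2.23-fold (PFKP). Of the 34 members, 25 were called lower and 1 higher in the mean response, against 19.6% of all genes called lower and 17.8% called higher. A call here is an adjusted p under 0.05 in edgeR's quasi-likelihood test over all genes. The members' median log2 fold change (treated over untreated, throughout) was -0.38, and that of all genes was -0.02. Of the 8 members without a call, 3 belong to the payoff phase (GAPDH, ENO2 and ENO3). The others were SLC16A3, PDHA1, DLAT, H6PD and RPIA.

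**Figure D1:**
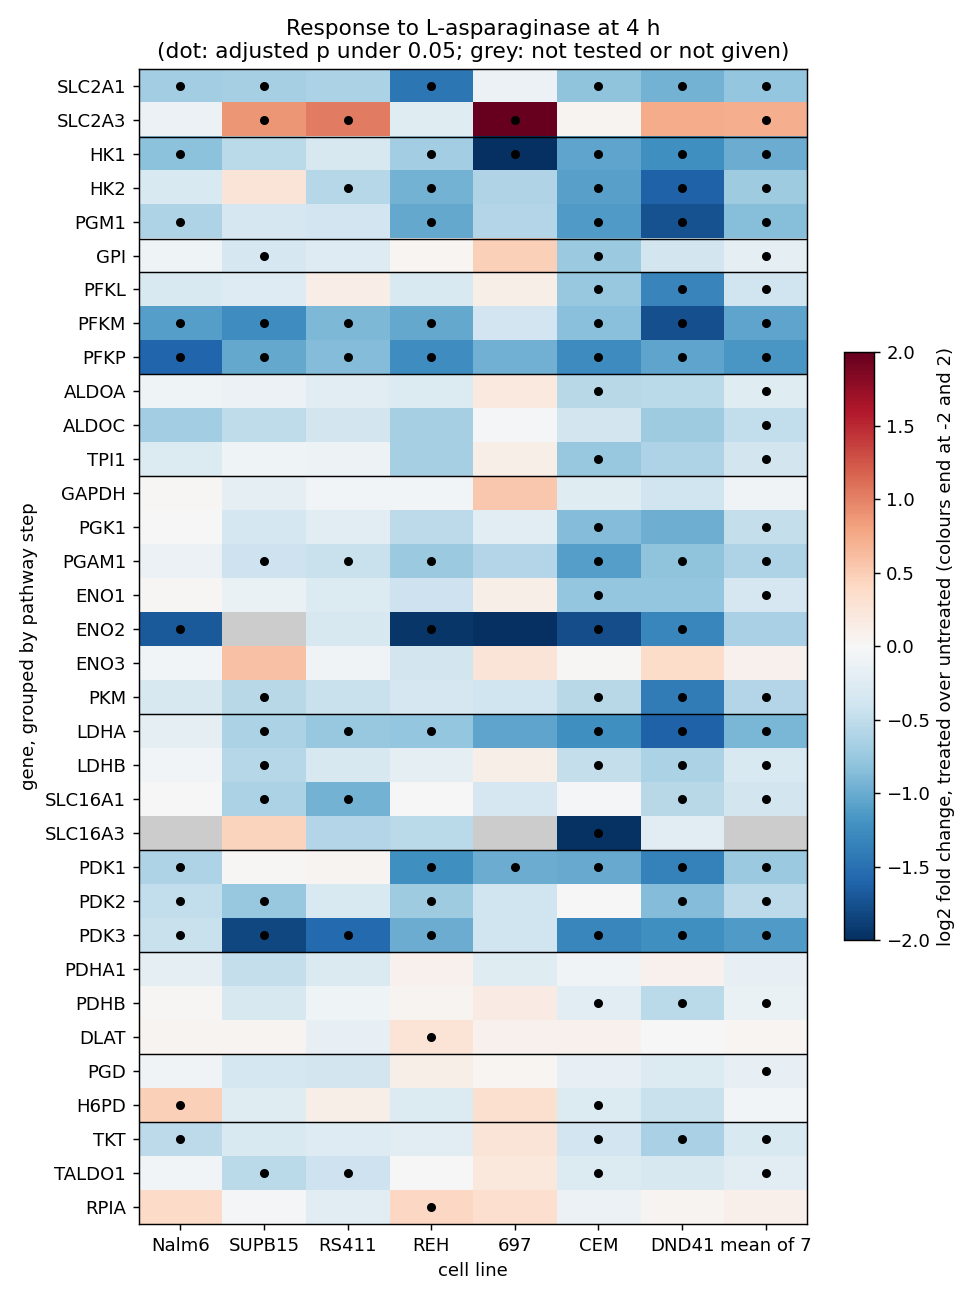
Log2 fold change (treated over untreated) of each member (rows, in pathway order) in each line and in the mean of 7 lines (columns). Dots mark adjusted p under 0.05, and grey marks members not tested in a line and the mean of SLC16A3, which is not given because 697 held no count of it. Blue fills most rows above the pyruvate dehydrogenase complex, CEM has 24 dots and 697 has 3, and SLC2A3 is the row with red dots in SUPB15, RS411 and 697.

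The T-cell lines held the most calls. CEM had 24 of 34 tested members lower and 0 higher (17.7% and 19% of all genes), with a median log2 fold change of -0.66 for the members and -0.00 for all genes. DND41 had 18 of 34 lower and 0 higher (11.8% and 15.1% of all genes), with a median of -0.68 against -0.01. With the experiment letter as a block, which pairs the treated and untreated libraries of 1 letter, 27 members were lower and 1 higher in DND41 (18.1% and 21.8% of all genes). At an unadjusted p under 0.05, edgeR and DESeq2 each gave 0 higher in CEM and 1 higher in DND41 (SLC2A3), which DESeq2 also called.

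Among the B-cell precursor lines, REH had 12 of 34 lower and 2 higher (13.3% and 13.2% of all genes), with a median of -0.39 against -0.01. With the experiment letter as a block, 23 were lower in REH (21.2% of all genes). SUPB15 had 12 of 33 lower and 1 higher (13.2% and 12.9%), with a median of -0.34 against -0.03, and 7 were lower without treated C (6.73% of all genes). Nalm6 had 10 of 33 lower and 1 higher (11.8% and 8.96%), with a median of -0.19 against -0.00. RS411 had 8 of 34 lower and 1 higher (5.19% and 7.58%), with a median of -0.31 against -0.02. The RS411 count of lower members was 17 without untreated A (11% of all genes) and 4 without treated B (0.978%). In 697, 2 of 33 were lower and 1 higher (0.849% and 1.55%), with a median of -0.04 against -0.02, and 11 were lower without untreated 1 (11.8% of all genes).

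Within every line the untreated libraries had a higher median coefficient of variation than the treated ones. Over the tested members it was 16.6% untreated and 9.50% treated in Nalm6, 34.8% and 7.74% in 697, and 26.0% and 12.4% in DND41. In the other lines it was 11.6% to 17.9% untreated and 6.51% to 11.1% treated. Untreated C was the highest of the 3 for 26 of 33 members in Nalm6, 29 of 34 in REH, 27 of 34 in CEM and 23 of 34 in DND41. The lowest of the 3 was untreated A for 13 of 33 in Nalm6, 22 of 33 in SUPB15 and 23 of 34 in RS411. It was untreated A for 31 of 34 in REH, 27 of 34 in CEM and 22 of 34 in DND41, and untreated 1 for 22 of 33 in 697. Leaving out 1 library at a time, the calls that held in every such fit were 24 of 26 in the mean response, 21 of 24 in CEM, 14 of 18 in DND41, 11 of 14 in REH, 6 of 13 in SUPB15, 5 of 11 in Nalm6, 4 of 9 in RS411 and 1 of 3 in 697.

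Members that fell together were read for promoter motifs, and the stretches below show how unlike they are: LDHA, PFKP, PFKM and PDK3 had 4 of the 5 largest falls in the mean response among members given a mean, and GAPDH was not called in the mean response over all libraries. Each is the 150 bases before the annotated start in RefSeq (GRCh38.p14), 5′ to 3′ on the gene's strand, and capitals mark every ACGTG or GCGTG on either strand, the core letters of the hypoxia response element.
PFKP (chr10:3067820-3067969, strand +): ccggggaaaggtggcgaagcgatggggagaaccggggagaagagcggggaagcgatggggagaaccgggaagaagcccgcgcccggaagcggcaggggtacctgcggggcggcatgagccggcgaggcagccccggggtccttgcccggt
PFKM (chr12:48105723-48105872, strand +): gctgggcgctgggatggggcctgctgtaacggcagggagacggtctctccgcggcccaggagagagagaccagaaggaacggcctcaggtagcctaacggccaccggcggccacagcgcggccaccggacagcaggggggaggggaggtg
PDK3 (chrX:24465136-24465285, strand +): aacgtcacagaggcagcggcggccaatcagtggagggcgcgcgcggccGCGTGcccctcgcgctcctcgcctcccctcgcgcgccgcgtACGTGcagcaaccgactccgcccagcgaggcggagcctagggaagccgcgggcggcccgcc
LDHA (chr11:18394413-18394562, strand +): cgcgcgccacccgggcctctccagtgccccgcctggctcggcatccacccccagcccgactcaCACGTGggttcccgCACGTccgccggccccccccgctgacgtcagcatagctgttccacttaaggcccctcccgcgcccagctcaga
GAPDH (chr12:6535114-6535263, strand +): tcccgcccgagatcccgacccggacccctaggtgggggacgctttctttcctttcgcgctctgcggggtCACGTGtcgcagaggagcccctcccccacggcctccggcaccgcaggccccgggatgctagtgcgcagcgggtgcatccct
The stretches of PFKP and PFKM hold no core. Those of LDHA and GAPDH hold the palindrome CACGTG, known as the E-box bound by MYC family proteins, which counts as a core on both strands. RefSeq windows of 300 bases (250 before to 50 after the start) were found for 32 members, and either core was present in 14 of the 24 members called lower (58.3%), in 6 of the 8 others (75%) and in 48.4% of all 27305 windows. CACGTG was present in 12.5% of the 32 members and in 7.43% of all windows. TGATGNAAN, the letters of the C/EBP-ATF element of the amino acid response (N is any base), was present in 1 of the 32 members (3.12%) and in 3.67% of all windows. That member was HK1, the other of the 5 largest falls, whose stretch is not printed here and holds no hypoxia response core. Each gene was read at 1 annotated start only, and which start these lines use was not tested. A match describes letters in these windows and not binding.

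Glucose enters through GLUT1, encoded by SLC2A1, and the high-affinity GLUT3, encoded by SLC2A3. CPM, the count of a gene per mega count of its library, are given from here on after TMM scaling over all 42 libraries. They are printed in the order of the library names. The marker sums above were scaled by the total count only. SLC2A1 in Nalm6 stood at 51.6, 72.2 and 76.4 CPM untreated and 35.9, 43.1 and 42 CPM treated, and in SUPB15 at 37.2, 65.9 and 62.0 untreated and 31.3, 37.4 and 36.0 treated. In RS411 the SLC2A1 CPM were 23.7, 43.3 and 37.4 untreated and 20.2, 23.4 and 22.9 treated, and in REH 47.6, 54.3 and 72.8 untreated and 20.6, 23.0 and 18.9 treated. The treated SLC2A1 values all lay below the untreated ones in Nalm6, RS411 and REH, and the groups overlapped in SUPB15. SLC2A1 read 9.07, 37.7 and 37.9 CPM in untreated 697 and 28.8, 23.1 and 26.0 CPM in treated 697. For SLC2A1, CEM gave 45.0, 46.3 and 84.5 CPM untreated and 34.4, 34 and 32.0 CPM treated, and DND41 50.1, 56.2 and 55.1 untreated and 27.9, 28.2 and 26.2 treated. Treated libraries for SLC2A1 all lay below the untreated ones in CEM and DND41, and the groups overlapped in 697. SLC2A1 fell in the mean response (log2 fold change -0.77 ± 0.11, adjusted p = 5.1e-07, ± giving the SE throughout) and was called lower in 5 lines (Nalm6, SUPB15, REH, CEM and DND41), from -1.44 ± 0.15 in REH to -0.67 ± 0.20 in SUPB15 (adjusted p = 0.00015 to 0.037). The SUPB15 call was lost without untreated B, untreated C, treated A, treated B or treated C (log2 fold change -0.72 to -0.53, adjusted p = 0.098 to 0.13). In RS411 it was not called (log2 fold change -0.63 ± 0.19, adjusted p = 0.066) but was with the experiment letter as a block (log2 fold change -0.60, adjusted p = 0.03). The pairing of libraries by letter is doubtful in RS411.

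SLC2A3 in Nalm6 stood at 26.2, 22.1 and 25.6 CPM untreated and 25.6, 17.8 and 23.8 CPM treated, and in SUPB15 at 30.3, 31.3 and 40.3 untreated and 62.5, 60.4 and 67.2 treated. In RS411 the SLC2A3 CPM were 20.8, 16.9 and 19.0 untreated and 38.6, 38.3 and 38.7 treated, and in REH 36.2, 42.4 and 51.5 untreated and 27.2, 40.5 and 39.2 treated. The treated SLC2A3 values all lay above the untreated ones in SUPB15 and RS411, and the groups overlapped in Nalm6 and REH. SLC2A3 read 10.0, 9.02 and 8.98 CPM in untreated 697 and 57.6, 70.8 and 62.0 CPM in treated 697. For SLC2A3, CEM gave 27.4, 37.1 and 39.4 CPM untreated and 27.9, 40.1 and 39.2 CPM treated, and DND41 35.3, 43.0 and 85 untreated and 74.2, 104 and 89.4 treated. Treated libraries for SLC2A3 all lay above the untreated ones in 697, and the groups overlapped in CEM and DND41. SLC2A3 rose in the mean response (log2 fold change 0.72 ± 0.081, adjusted p = 4.3e-09) and was called higher in 3 lines (SUPB15, RS411 and 697), from 2.75 ± 0.19 in 697 to 0.88 ± 0.14 in SUPB15 (adjusted p = 0.0025 to 0.0038). Responses of SLC2A3 differed between lines (interaction adjusted p = 7.7e-08), with 697 above the mean of the other 6 lines with a log2 difference of 2.39 ± 0.24 and Nalm6 and REH below it with differences of -1.0 ± 0.23 and -1.16 ± 0.23. It was not called in DND41 (log2 fold change 0.74 ± 0.28, adjusted p = 0.074) and was called there with the block (log2 fold change 0.83, adjusted p = 0.0041). In REH the block gave a call in the lower direction (-0.24, adjusted p = 0.043) where the fit without it did not (log2 fold change -0.24 ± 0.15, adjusted p = 0.3).

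Per kilobase of exon, the share of SLC2A3 in the summed SLC2A1 and SLC2A3 level was higher on average in treated libraries of every line. It was 30.6% ± 19.3 untreated and 71.2% ± 4.38 treated (SD, n = 3) in 697, 48.9% ± 10.6 untreated and 76.5% ± 3.10 treated in DND41, and 39.2% ± 6.39 untreated and 64.9% ± 2.46 treated in SUPB15. The share was 36.5% ± 9.62 untreated and 63.9% ± 1.87 treated in RS411, 43.3% ± 1.25 untreated and 63.1% ± 5.31 treated in REH, 38.5% ± 6.37 untreated and 51.8% ± 5.67 treated in CEM and 27.8% ± 5.53 untreated and 36.1% ± 6.19 treated in Nalm6. The groups of the share overlapped in Nalm6, where 1 treated library lay within the untreated range. In REH, CEM and Nalm6 SLC2A1 was called lower and SLC2A3 was not called, while in RS411 and 697 SLC2A3 was called higher and SLC2A1 was not called.

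**Figure D2:**
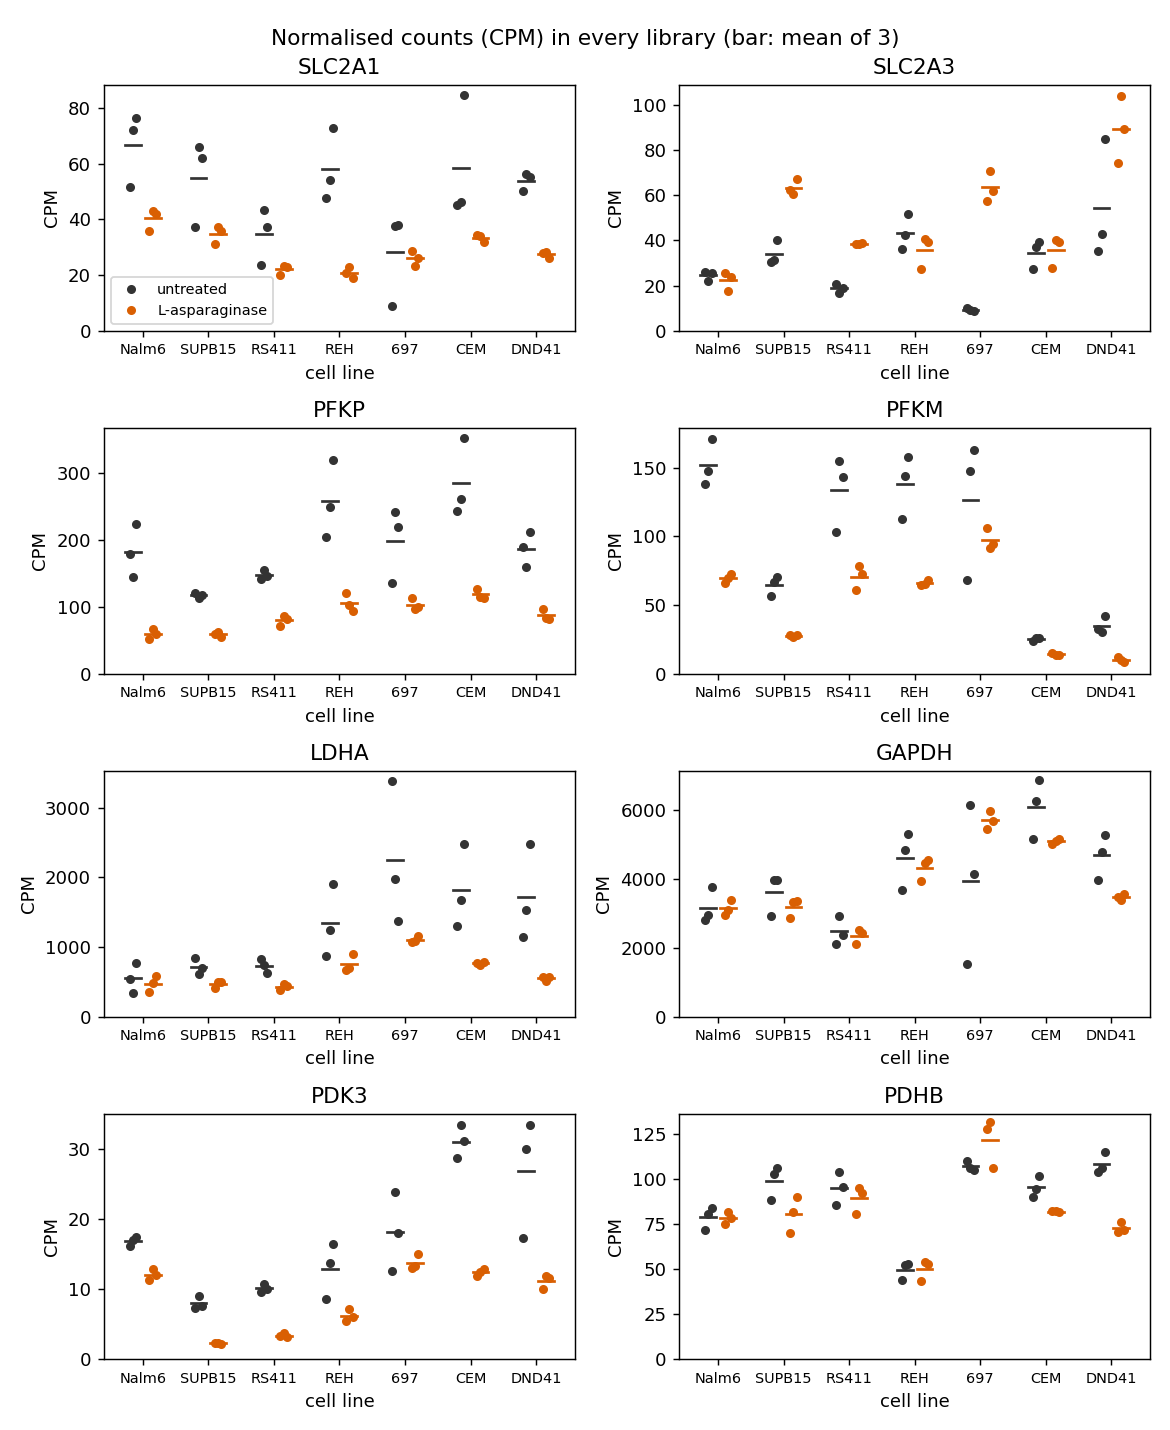
CPM of 8 members in every library (points) with the mean of 3 (bar), untreated in black and treated in orange, by line, each axis starting at 0. PFKP is lower in every treated library in all 7 lines, SLC2A3 is highest above its untreated level in 697, and GAPDH in 697 shows untreated 1 at 1520.4 CPM against 6142 and 4156 in the other untreated libraries.

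Hexokinases HK1 and HK2 trap glucose as glucose phosphate, and PGM1 links it to glycogen and sugar nucleotides. HK1 in Nalm6 stood at 70.4, 55.4 and 77.4 CPM untreated and 35.2, 37.7 and 39.7 CPM treated, and in SUPB15 at 8.77, 5.81 and 6.18 untreated and 5.09, 4.02 and 5.39 treated. In RS411 the HK1 CPM were 86.4, 70.9 and 70.8 untreated and 56.8, 61.4 and 63.5 treated, and in REH 87.9, 96.6 and 141 untreated and 65.6, 61.8 and 66.4 treated. The treated HK1 values all lay below the untreated ones in Nalm6, SUPB15, RS411 and REH. HK1 read 43.3, 39.8 and 26.4 CPM in untreated 697 and 6.91, 7.38 and 9.65 CPM in treated 697. For HK1, CEM gave 198, 215 and 295 CPM untreated and 118, 105 and 113 CPM treated, and DND41 135, 129 and 271 untreated and 93.4, 56.3 and 73.5 treated. Treated libraries for HK1 all lay below the untreated ones in 697, CEM and DND41. HK1 fell in the mean response (log2 fold change -1.0 ± 0.087, adjusted p = 1.3e-11) and was called lower in 5 lines (Nalm6, REH, 697, CEM and DND41), from -2.21 ± 0.27 in 697 to -0.70 ± 0.15 in REH (adjusted p = 9.8e-05 to 0.017). Its response differed between lines (interaction adjusted p = 0.0012), with 697 below the other lines with a log2 difference of -1.39 ± 0.25. The 697 call was lost without untreated 2, treated 1, treated 2 or treated 3 (log2 fold change -2.36 to -2.11, adjusted p = 0.067 to 0.15).

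HK2 in Nalm6 stood at 141, 109 and 196 CPM untreated and 104, 123 and 124 CPM treated, and in SUPB15 at 72.0, 65.0 and 57.8 untreated and 83.2, 78.1 and 73.4 treated. In RS411 the HK2 CPM were 87.6, 87.6 and 92.5 untreated and 71.0, 54.1 and 54.0 treated, and in REH 96.1, 96.3 and 155 untreated and 50.9, 65.6 and 59.1 treated. The treated HK2 values all lay below the untreated ones in RS411 and REH and above them in SUPB15, and the groups overlapped in Nalm6. HK2 read 81.5, 98.3 and 116 CPM in untreated 697 and 70.0, 60.9 and 65.7 CPM in treated 697. For HK2, CEM gave 47.0, 35.6 and 68.1 CPM untreated and 24.0, 24.2 and 22.5 CPM treated, and DND41 89.0, 90.5 and 145 untreated and 34.1, 39.0 and 30.5 treated. Treated libraries for HK2 all lay below the untreated ones in 697, CEM and DND41. HK2, the inducible hexokinase, fell in the mean response (log2 fold change -0.71 ± 0.078, adjusted p = 2.7e-09) and was called lower in 4 lines (RS411, REH, CEM and DND41), from -1.61 ± 0.19 in DND41 to -0.57 ± 0.14 in RS411 (adjusted p = 0.00065 to 0.033). The RS411 call was lost without untreated B, untreated C, treated B or treated C (log2 fold change -0.60 to -0.49, adjusted p = 0.061 to 0.17). Responses differed between lines for HK2 (interaction adjusted p = 0.0003): SUPB15 lay above the other lines with a log2 difference of 1.14 ± 0.22 and DND41 below them with a log2 difference of -1.09 ± 0.22. HK1 made 32.3% ± 9.07 untreated and 13.4% ± 2.30 treated of the summed hexokinase level per kilobase in 697 and 85.8% ± 2.31 untreated and 85.8% ± 0.99 treated in CEM.

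PGM1 in Nalm6 stood at 73.3, 68.9 and 103 CPM untreated and 45.3, 55.0 and 56.7 CPM treated, and in SUPB15 at 37.4, 40.1 and 37.2 untreated and 28.3, 31.2 and 33.0 treated. In RS411 the PGM1 CPM were 60.3, 68.0 and 67.1 untreated and 42.9, 52.5 and 52.6 treated, and in REH 46.2, 66.6 and 87.5 untreated and 26.9, 34.4 and 34.5 treated. The treated PGM1 values all lay below the untreated ones in Nalm6, SUPB15, RS411 and REH. PGM1 read 75.8, 147 and 95.2 CPM in untreated 697 and 71.1, 67.8 and 73.6 CPM in treated 697. For PGM1, CEM gave 82.0, 107 and 131 CPM untreated and 49.0, 44.5 and 51.7 CPM treated, and DND41 73.1, 85.7 and 129 untreated and 35.2, 22.9 and 25.2 treated. Treated libraries for PGM1 all lay below the untreated ones in 697, CEM and DND41. PGM1 was lower in the mean response (log2 fold change -0.85 ± 0.082, adjusted p = 1.6e-10) and was called lower in 4 lines (Nalm6, REH, CEM and DND41), from -1.75 ± 0.23 in DND41 to -0.61 ± 0.15 in Nalm6 (adjusted p = 8.9e-05 to 0.017). Without any 1 of 3 libraries the Nalm6 call was lost: untreated C, treated A or treated B (log2 fold change -0.64 to -0.42, adjusted p = 0.054 to 0.086). In RS411, where the pairing by letter is doubtful, it was called with the block (log2 fold change -0.39, adjusted p = 0.046). PGM1 responses differed (interaction adjusted p = 0.0043), DND41 lying below the other lines with a log2 difference of -1.10 ± 0.24.

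GPI turns glucose phosphate into fructose phosphate. GPI in Nalm6 stood at 233, 199 and 264 CPM untreated and 215, 196 and 230.0 CPM treated, and in SUPB15 at 95.1, 108 and 105 untreated and 84.2, 81.6 and 80.0 treated. In RS411 the GPI CPM were 202, 269.8 and 241 untreated and 187, 203 and 199 treated, and in REH 116, 120.2 and 132 untreated and 131, 117 and 120.5 treated. The treated GPI values all lay below the untreated ones in SUPB15, and the groups overlapped in Nalm6, RS411 and REH. GPI read 82.2, 176 and 189.5 CPM in untreated 697 and 214, 199.7 and 211 CPM in treated 697. For GPI, CEM gave 431, 631 and 703 CPM untreated and 303, 346 and 391 CPM treated, and DND41 116, 102 and 121 untreated and 92.8, 83.1 and 80.9 treated. Treated libraries for GPI all lay below the untreated ones in CEM and DND41 and above them in 697. GPI fell in the mean response (log2 fold change -0.20 ± 0.068, adjusted p = 0.019) and was called lower in 2 lines (SUPB15 and CEM), from -0.75 ± 0.16 in CEM to -0.34 ± 0.11 in SUPB15 (adjusted p = 0.0028 to 0.048). The SUPB15 call was lost without untreated B, untreated C, treated A, treated B or treated C (log2 fold change -0.37 to -0.31, adjusted p = 0.072 to 0.2) and with the block (log2 fold change -0.34, adjusted p = 0.064). In DND41 the block gave a call (log2 fold change -0.37, adjusted p = 0.016). 697 lay above the other lines with a log2 difference of 0.79 ± 0.20 (interaction adjusted p = 0.015). In 697, untreated 1 was the lowest GPI library, and without the 5 untreated libraries set apart the difference was 0.53, adjusted p = 0.021.

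Phosphofructokinase commits sugar to glycolysis, and its platelet, muscle and liver isozymes are encoded by PFKP, PFKM and PFKL. PFKP in Nalm6 stood at 179.6, 145 and 224 CPM untreated and 51.9, 66.2 and 60.0 CPM treated, and in SUPB15 at 121, 113 and 118 untreated and 59.8, 62.2 and 54.3 treated. In RS411 the PFKP CPM were 141, 155 and 146 untreated and 72.1, 87.1 and 81.6 treated, and in REH 205, 249.9 and 319.8 untreated and 121, 103 and 93.3 treated. The treated PFKP values all lay below the untreated ones in Nalm6, SUPB15, RS411 and REH. PFKP read 136, 242 and 219 CPM in untreated 697 and 113, 96.6 and 99.7 CPM in treated 697. For PFKP, CEM gave 244, 261 and 353 CPM untreated and 127, 115 and 114 CPM treated, and DND41 189, 160.2 and 212 untreated and 97.2, 84.1 and 82.0 treated. Treated libraries for PFKP all lay below the untreated ones in 697, CEM and DND41. PFKP had the largest mean fall of the members given a mean (log2 fold change -1.16 ± 0.066, adjusted p = 4.1e-16) and was called lower in 6 lines (Nalm6, SUPB15, RS411, REH, CEM and DND41), from -1.59 ± 0.16 in Nalm6 to -0.87 ± 0.11 in RS411 (adjusted p = 2.6e-05 to 0.0034). Without the 3 treated libraries set apart, ENO2 fell by more (log2 fold change -1.71, adjusted p = 1.3e-05) than PFKP (log2 fold change -1.17, adjusted p = 2.1e-14). In 697 PFKP was not called (log2 fold change -0.96 ± 0.23, adjusted p = 0.078), and without untreated 1 it was (log2 fold change -1.15, adjusted p = 2.5e-05).

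PFKM in Nalm6 stood at 138, 148 and 171 CPM untreated and 66.2, 69.5 and 72.7 CPM treated, and in SUPB15 at 56.6, 66.5 and 70.7 untreated and 28.5, 26.9 and 28.0 treated. In RS411 the PFKM CPM were 103, 155 and 143 untreated and 61.2, 78.2 and 72.7 treated, and in REH 113, 144 and 158 untreated and 64.3, 65.5 and 68.2 treated. The treated PFKM values all lay below the untreated ones in Nalm6, SUPB15, RS411 and REH. PFKM read 68.1, 148 and 163 CPM in untreated 697 and 106, 91.3 and 94.3 CPM in treated 697. For PFKM, CEM gave 23.5, 25.9 and 26.3 CPM untreated and 15.1, 13.3 and 13.8 CPM treated, and DND41 32.4, 30.6 and 42 untreated and 11.8, 10.2 and 8.41 treated. Treated libraries for PFKM all lay below the untreated ones in CEM and DND41, and the groups overlapped in 697. PFKM fell in the mean response (log2 fold change -1.05 ± 0.073, adjusted p = 5e-14) and was called lower in 6 lines (Nalm6, SUPB15, RS411, REH, CEM and DND41), from -1.76 ± 0.18 in DND41 to -0.84 ± 0.094 in CEM (adjusted p = 5.7e-05 to 0.01). The RS411 call was lost without treated C (log2 fold change -0.91, adjusted p = 0.065). DND41 lay below the other lines with a log2 difference of -0.86 ± 0.21 and 697 above them with a log2 difference of 0.78 ± 0.21 (interaction adjusted p = 0.0098). In 697 PFKM was not called (log2 fold change -0.38 ± 0.30, adjusted p = 0.51).

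PFKL in Nalm6 stood at 279, 352 and 363 CPM untreated and 263, 270.3 and 249 CPM treated, and in SUPB15 at 275, 432 and 410.3 untreated and 315, 330.3 and 297 treated. In RS411 the PFKL CPM were 155, 193 and 188 untreated and 196, 187 and 197 treated, and in REH 227, 282 and 300.1 untreated and 199.5, 211 and 228 treated. The treated PFKL values all lay below the untreated ones in Nalm6, and the groups overlapped in SUPB15, RS411 and REH. PFKL read 89.0, 332 and 230.1 CPM in untreated 697 and 217, 213 and 275 CPM in treated 697. For PFKL, CEM gave 133, 146 and 124 CPM untreated and 87.5, 69.8 and 79.1 CPM treated, and DND41 101, 146 and 157 untreated and 64.9, 42.8 and 49.4 treated. Treated libraries for PFKL all lay below the untreated ones in CEM and DND41, and the groups overlapped in 697. PFKL fell less on average (log2 fold change -0.40 ± 0.091, adjusted p = 0.00047) and was called lower in 2 lines (CEM and DND41), from -1.32 ± 0.20 in DND41 to -0.76 ± 0.10 in CEM (adjusted p = 0.00017 to 0.0018). REH gained a PFKL call with the block (log2 fold change -0.29, adjusted p = 0.0071). DND41 lay below the other lines with a log2 difference of -1.11 ± 0.26 (interaction adjusted p = 0.014), and without DND41 the mean response of PFKL was -0.24 with no call. The PFKL share of the summed phosphofructokinase level per kilobase was 58.3% ± 4.30 untreated and 74.4% ± 1.68 treated in Nalm6, 47.4% ± 0.597 untreated and 64.5% ± 2.93 treated in RS411, 48.5% ± 1.95 untreated and 63.3% ± 3.35 treated in REH and 73.3% ± 4.74 untreated and 83.3% ± 0.223 treated in SUPB15. In DND41 the mean of that share was lower after treatment, 44.2% ± 6.42 untreated and 40.9% ± 3.32 treated. There the groups overlapped (37.5%, 50.3% and 44.9% untreated, 43.8%, 37.3% and 41.6% treated), and the means differed by less than the untreated SD.

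**Figure D3:**
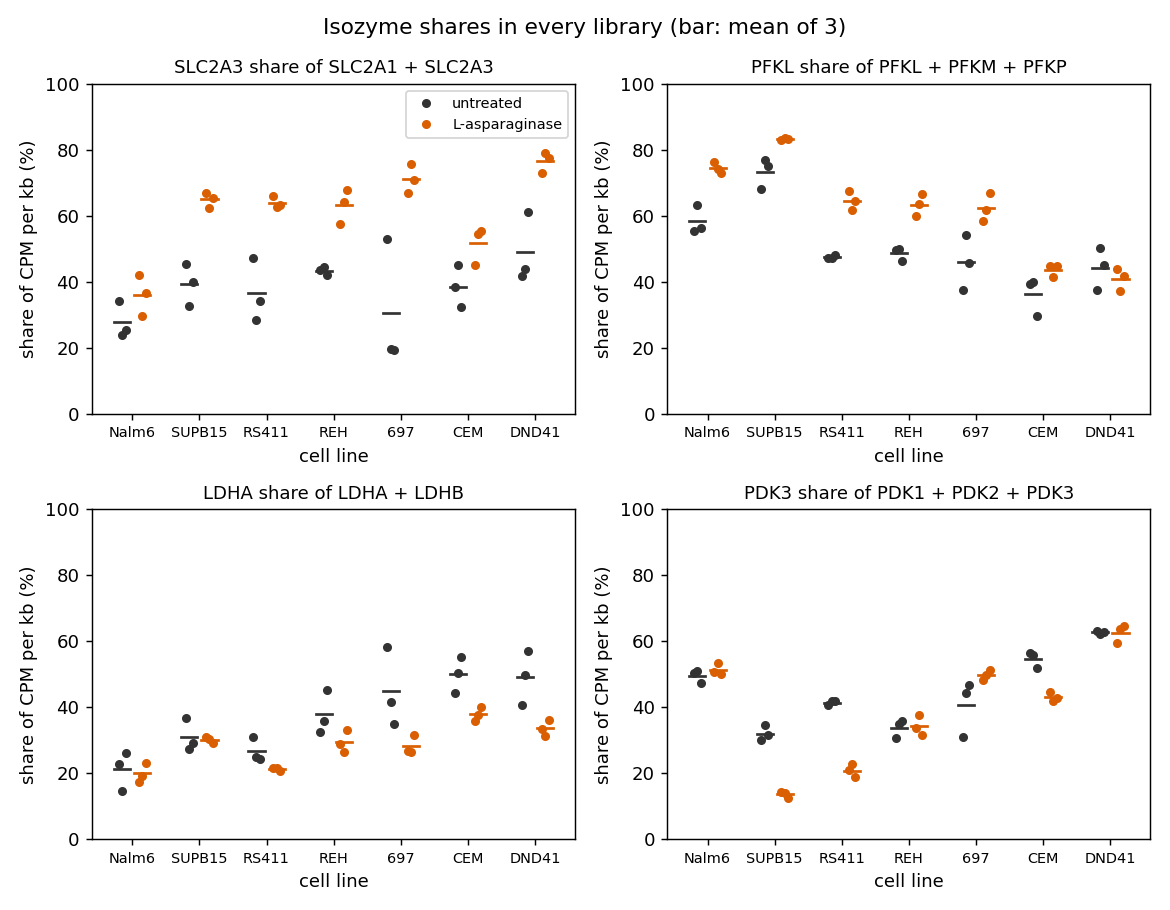
Share of an isozyme in the summed level per kilobase of its set (%, points per library, bar the mean of 3) in untreated (black) and treated (orange) libraries by line. The SLC2A3 share is higher on average after treatment in every line, the PFKL share in 6 of 7 lines, and the PDK3 share falls from 32.1% to 13.6% in SUPB15 and from 41.4% to 20.8% in RS411.

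Aldolase splits fructose bisphosphate, and triose isomerase (TPI1) interconverts the products. ALDOC in Nalm6 stood at 81.5, 47.3 and 133 CPM untreated and 53.2, 29.9 and 74.4 CPM treated, and in SUPB15 at 5.97, 9.59 and 8.86 untreated and 3.52, 6.17 and 7.56 treated. In RS411 the ALDOC CPM were 15.9, 14.9 and 16.1 untreated and 12.4, 10.9 and 13.1 treated, and in REH 79.2, 149.6 and 183 untreated and 49.5, 82.2 and 119 treated. The treated ALDOC values all lay below the untreated ones in RS411, and the groups overlapped in Nalm6, SUPB15 and REH. ALDOC read 126, 286 and 142 CPM in untreated 697 and 154, 160.1 and 225 CPM in treated 697. For ALDOC, CEM gave 3.31, 7.61 and 5.16 CPM untreated and 2.65, 5.18 and 4.60 CPM treated, and DND41 2.85, 12.1 and 11.5 untreated and 2.17, 6.42 and 7.25 treated. For ALDOC the treated and untreated groups overlapped in 697, CEM and DND41. ALDOC, the aldolase known from brain, was lower in the mean response (log2 fold change -0.50 ± 0.17, adjusted p = 0.019) with no call in any single line. With the block it was called in REH (-0.68, adjusted p = 5.4e-05) and in DND41 (-0.65, adjusted p = 0.012).

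TPI1 in Nalm6 stood at 328, 316 and 822 CPM untreated and 305, 347 and 535 CPM treated, and in SUPB15 at 334, 573 and 545 untreated and 404, 484 and 491 treated. In RS411 the TPI1 CPM were 333, 536 and 477 untreated and 369.7, 429.6 and 447 treated, and in REH 624, 1066 and 1334 untreated and 478, 642 and 726 treated. For TPI1 the treated and untreated groups overlapped in Nalm6, SUPB15, RS411 and REH. TPI1 read 296, 1309.9 and 759.5 CPM in untreated 697 and 812, 887 and 865 CPM in treated 697. For TPI1, CEM gave 1017, 1351 and 1539 CPM untreated and 726, 726 and 833 CPM treated, and DND41 504, 963 and 1319 untreated and 456, 589 and 726 treated. Treated libraries for TPI1 all lay below the untreated ones in CEM, and the groups overlapped in 697 and DND41. TPI1 was called lower in the mean response (log2 fold change -0.36 ± 0.14, adjusted p = 0.038) and in 1 line (CEM, log2 fold change -0.76 ± 0.14, adjusted p = 0.0013). The mean call was lost without any 1 of 20 libraries: Nalm6 untreated C / treated A / treated B, SUPB15 untreated B / untreated C / treated A, RS411 untreated B / treated A, REH untreated B / untreated C / treated A, 697 untreated 2 / treated 1, CEM untreated B / untreated C / treated A / treated B, DND41 untreated B / untreated C / treated A (log2 fold change -0.36 to -0.27, adjusted p = 0.0504 to 0.1). It was also lost without the 3 treated libraries set apart (log2 fold change -0.35, adjusted p = 0.075). The block gave TPI1 calls in REH (-0.63, adjusted p = 0.00063) and DND41 (-0.55, adjusted p = 0.0089).

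ALDOA, the main aldolase of these lines, was called lower in the mean response (log2 fold change -0.25 ± 0.095, adjusted p = 0.037) and in 1 line (CEM, log2 fold change -0.56 ± 0.12, adjusted p = 0.0039). Its mean call was lost without any 1 of 15 libraries: Nalm6 untreated C / treated A / treated B, RS411 untreated B / treated A, REH untreated C / treated A, 697 untreated 2 / treated 1 / treated 2, CEM untreated C / treated B, DND41 untreated C / treated A / treated B (log2 fold change -0.25 to -0.20, adjusted p = 0.05 to 0.083). Without the 3 treated libraries set apart it was lost too (log2 fold change -0.24, adjusted p = 0.07). With the block ALDOA was called in REH (-0.25, adjusted p = 0.038) and DND41 (-0.51, adjusted p = 0.0065).

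The payoff phase makes ATP and pyruvate. PGAM1 in Nalm6 stood at 104, 87.3 and 139 CPM untreated and 95.3, 99.7 and 104 CPM treated, and in SUPB15 at 87.6, 105 and 100.3 untreated and 70.2, 77.1 and 75.5 treated. In RS411 the PGAM1 CPM were 90.3, 115 and 104 untreated and 68.5, 79.0 and 78.0 treated, and in REH 114, 146 and 179.7 untreated and 80.2, 92.1 and 80.6 treated. The treated PGAM1 values all lay below the untreated ones in SUPB15, RS411 and REH, and the groups overlapped in Nalm6. PGAM1 read 147, 245 and 182 CPM in untreated 697 and 139, 125 and 122 CPM in treated 697. For PGAM1, CEM gave 189, 216 and 298 CPM untreated and 116, 102 and 108 CPM treated, and DND41 118, 149 and 202 untreated and 90.4, 89.1 and 84.3 treated. Treated libraries for PGAM1 all lay below the untreated ones in 697, CEM and DND41. PGAM1, phosphoglycerate mutase, fell in the mean response (log2 fold change -0.61 ± 0.069, adjusted p = 3.5e-09) and was called lower in 5 lines (SUPB15, RS411, REH, CEM and DND41), from -1.10 ± 0.14 in CEM to -0.41 ± 0.12 in SUPB15 (adjusted p = 0.00012 to 0.037). The SUPB15 call was lost without untreated B, untreated C, treated A, treated B or treated C (log2 fold change -0.43 to -0.36, adjusted p = 0.08 to 0.12), and the RS411 call without untreated B, untreated C, treated A, treated B or treated C (log2 fold change -0.48 to -0.38, adjusted p = 0.089 to 0.16). Reads of 13 near-identical copies, among them PGAM4, came to at most 3.36% of the PGAM1 count, so a part of its reads may be split among them.

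ENO2 in Nalm6 stood at 2.57, 1.88 and 3.25 CPM untreated and 0.974, 0.607 and 0.793 CPM treated, and in SUPB15 at 0.0874, 0.0463 and 0.0731 untreated and 0, 0.0152 and 6.61 treated. In RS411 the ENO2 CPM were 0.176, 0.398 and 0.277 untreated and 0.255, 0.291 and 0.137 treated, and in REH 14.3, 31.7 and 50.8 untreated and 6.33, 8.73 and 8.96 treated. The treated ENO2 values all lay below the untreated ones in Nalm6 and REH, and the groups overlapped in SUPB15 and RS411. ENO2 read 7.85, 30.5 and 22.7 CPM in untreated 697 and 3.84, 4.18 and 4.27 CPM in treated 697. For ENO2, CEM gave 56.6, 79.2 and 104 CPM untreated and 17.8, 26.4 and 25.8 CPM treated, and DND41 45.5, 75.9 and 114 untreated and 29.8, 30.9 and 31.6 treated. Treated libraries for ENO2 all lay below the untreated ones in 697, CEM and DND41. ENO2, the neuronal enolase, was not called in the mean response (log2 fold change -0.65 ± 0.38, adjusted p = 0.2), in which treated SUPB15 C stood at 6.61 CPM and the other treated SUPB15 libraries at 0 and 0.0152 CPM. Without the 3 treated libraries set apart, SUPB15 C among them, ENO2 was called lower (log2 fold change -1.71, adjusted p = 1.3e-05). It was called lower in 4 lines (Nalm6, REH, CEM and DND41), from -1.95 ± 0.34 in REH to -1.31 ± 0.26 in DND41 (adjusted p = 4.8e-05 to 0.0058), was too low to be tested in SUPB15, and in 697 missed the threshold (log2 fold change -2.31 ± 0.46, adjusted p = 0.051).

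GAPDH, whose messenger is used as a reference in many assays, was not called in the mean response (log2 fold change -0.07 ± 0.092, adjusted p = 0.66) or in any single line. Its treated values lay between 2113 and 5979 CPM and its untreated values between 1520.4 and 6880.1 CPM over the 42 libraries. In 697 untreated 1 (1520.4 CPM) lay far below the other untreated libraries (6142 and 4156 CPM), and the 3 treated ones were 5441, 5979 and 5681 CPM. Without the 5 untreated libraries set apart, GAPDH was called lower (log2 fold change -0.17, adjusted p = 0.014). In DND41 all treated libraries lay below the untreated ones (log2 fold change -0.40 ± 0.18, adjusted p = 0.13), and the block gave a call (log2 fold change -0.39, adjusted p = 0.027).

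PGK1, which makes the first ATP of the payoff phase, fell in the mean response (log2 fold change -0.47 ± 0.13, adjusted p = 0.0033) and was called lower in 1 line (CEM, log2 fold change -0.86 ± 0.16, adjusted p = 0.0015), and with the block also in REH (-0.50, adjusted p = 0.0021) and DND41 (-0.89, adjusted p = 0.00052). ENO1, the main enolase, fell in the mean response (log2 fold change -0.34 ± 0.11, adjusted p = 0.017) and was called lower in 1 line (CEM, log2 fold change -0.78 ± 0.17, adjusted p = 0.0035), and with the block also in REH (-0.39, adjusted p = 0.02) and DND41 (-0.71, adjusted p = 0.0018). Its mean was -0.25 with no call when either CEM or DND41 was left out. ENO3, the muscle enolase, was not called (log2 fold change 0.09 ± 0.096, adjusted p = 0.56). PKM, pyruvate kinase, fell (log2 fold change -0.59 ± 0.069, adjusted p = 1e-08) and was called lower in 3 lines (SUPB15, CEM and DND41), from -1.40 ± 0.18 in DND41 to -0.55 ± 0.14 in SUPB15 (adjusted p = 0.0011 to 0.022). DND41 lay below the other lines for PKM with a log2 difference of -0.98 ± 0.20 (interaction adjusted p = 0.018). Its SUPB15 call was lost without untreated B, treated A, treated B or treated C (log2 fold change -0.59 to -0.50, adjusted p = 0.051 to 0.081), and the block gave a call in REH (-0.33, adjusted p = 0.031).

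LDHA and LDHB encode the subunits of lactate dehydrogenase, the former favouring lactate formation. LDHA in Nalm6 stood at 536, 345 and 772 CPM untreated and 352, 482 and 585 CPM treated, and in SUPB15 at 841, 616 and 701 untreated and 416, 494 and 497 treated. In RS411 the LDHA CPM were 822, 747 and 629.9 untreated and 387, 468 and 441 treated, and in REH 871, 1246 and 1899 untreated and 665, 702 and 903 treated. The treated LDHA values all lay below the untreated ones in SUPB15 and RS411, and the groups overlapped in Nalm6 and REH. LDHA read 3382, 1982 and 1369.8 CPM in untreated 697 and 1076, 1081 and 1161 CPM in treated 697. For LDHA, CEM gave 1298, 1677 and 2487 CPM untreated and 775, 739 and 789 CPM treated, and DND41 1149.6, 1533 and 2477 untreated and 566, 512 and 569 treated. Treated libraries for LDHA all lay below the untreated ones in 697, CEM and DND41. LDHA fell in the mean response (log2 fold change -0.91 ± 0.11, adjusted p = 1.6e-08) and was called lower in 5 lines (SUPB15, RS411, REH, CEM and DND41), from -1.61 ± 0.25 in DND41 to -0.64 ± 0.16 in SUPB15 (adjusted p = 0.00037 to 0.034). Several of these calls were lost when 1 library was left out. The SUPB15 call was lost without treated A, treated B or treated C (log2 fold change -0.68 to -0.57, adjusted p = 0.056 to 0.07). The RS411 call was lost without treated A, treated B or treated C (log2 fold change -0.82 to -0.69, adjusted p = 0.064 to 0.086). The REH call was lost without untreated B, untreated C, treated A or treated B (log2 fold change -0.83 to -0.45, adjusted p = 0.064 to 0.13). No call was made in Nalm6 (log2 fold change -0.19 ± 0.26, adjusted p = 0.65) or in 697 (log2 fold change -1.05 ± 0.36, adjusted p = 0.17), and in 697 one was made without untreated 1 (log2 fold change -0.59, adjusted p = 0.029).

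LDHB fell in the mean response (log2 fold change -0.31 ± 0.05, adjusted p = 3.4e-06) and was called lower in 3 lines (SUPB15, CEM and DND41), from -0.63 ± 0.14 in DND41 to -0.47 ± 0.11 in CEM (adjusted p = 0.0075 to 0.02). The SUPB15 call of LDHB was lost without untreated B, untreated C, treated A or treated B (log2 fold change -0.59 to -0.47, adjusted p = 0.053 to 0.084), and the DND41 call without treated C (log2 fold change -0.57, adjusted p = 0.083). 697 lay above the other lines with a log2 difference of 0.51 ± 0.14 (interaction adjusted p = 0.02). The LDHA share of the summed LDHA and LDHB level per kilobase was 50.1% ± 5.38 untreated and 37.9% ± 2.08 treated in CEM and 49.1% ± 8.17 untreated and 33.7% ± 2.45 treated in DND41. It was 45.0% ± 12 untreated and 28.3% ± 2.92 treated in 697, 37.9% ± 6.54 untreated and 29.5% ± 3.50 treated in REH and 26.7% ± 3.66 untreated and 21.2% ± 0.532 treated in RS411. In SUPB15 and Nalm6 the means differed by less than the untreated SD, at 31.1% ± 5.10 untreated and 30.1% ± 0.85 treated and at 21.3% ± 5.80 untreated and 20.1% ± 2.97 treated.

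Lactate leaves cells through MCT1 (SLC16A1) and the hypoxia-induced MCT4 (SLC16A3). SLC16A3 in Nalm6 stood at 0.112, 0.512 and 0.261 CPM untreated and 0.0749, 0 and 0 CPM treated, and in SUPB15 at 0.0874, 0.278 and 0.493 untreated and 0.157, 0.485 and 0.558 treated. In RS411 the SLC16A3 CPM were 0.176, 0.644 and 0.406 untreated and 0.0567, 0.407 and 0.355 treated, and in REH 3.07, 2.88 and 3.07 untreated and 2.57, 1.65 and 1.95 treated. The treated SLC16A3 values all lay below the untreated ones in Nalm6 and REH, and the groups overlapped in SUPB15 and RS411. SLC16A3 read 0, 0 and 0 CPM in untreated 697 and 0, 0 and 0 CPM in treated 697. For SLC16A3, CEM gave 47.3, 60.6 and 111 CPM untreated and 15.9, 17.9 and 21.1 CPM treated, and DND41 6.52, 17.9 and 17.6 untreated and 9.81, 13.1 and 12.5 treated. Treated libraries for SLC16A3 all lay below the untreated ones in CEM, and the groups overlapped in 697 and DND41. SLC16A3 was called lower in 1 line (CEM, log2 fold change -1.98 ± 0.24, adjusted p = 9.5e-05) and, with the block, in REH (-0.56, adjusted p = 0.035). No count was found in any 697 library, where the fitted fold depends on the prior count, so no mean is given. It was not tested in Nalm6 and 697. SLC16A1 fell in the mean response (log2 fold change -0.36 ± 0.048, adjusted p = 9.8e-08) and was called lower in 3 lines (SUPB15, RS411 and DND41), from -0.94 ± 0.097 in RS411 to -0.55 ± 0.14 in DND41 (adjusted p = 0.002 to 0.018). The DND41 call of SLC16A1 was lost without untreated B, treated A or treated C (log2 fold change -0.59 to -0.46, adjusted p = 0.051 to 0.067). RS411 lay below the other lines with a log2 difference of -0.69 ± 0.14 (interaction adjusted p = 0.00042).

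Pyruvate dehydrogenase kinases inhibit the conversion of pyruvate to acetyl-CoA, and all 3 members fell in the mean response. PDK3 in Nalm6 stood at 16.2, 17.0 and 17.4 CPM untreated and 11.4, 12.9 and 12 CPM treated, and in SUPB15 at 7.40, 9.10 and 7.60 untreated and 2.35, 2.40 and 2.15 treated. In RS411 the PDK3 CPM were 9.59, 10.7 and 10.1 untreated and 3.34, 3.72 and 3.17 treated, and in REH 8.67, 13.7 and 16.5 untreated and 5.47, 7.24 and 6.07 treated. The treated PDK3 values all lay below the untreated ones in Nalm6, SUPB15, RS411 and REH. PDK3 read 12.6, 23.9 and 18.0 CPM in untreated 697 and 13.0, 13.3 and 15.1 CPM in treated 697. For PDK3, CEM gave 28.7, 33.4 and 31.1 CPM untreated and 11.9, 12.4 and 12.9 CPM treated, and DND41 17.3, 30.0 and 33.5 untreated and 10.1, 11.9 and 11.6 treated. Treated libraries for PDK3 all lay below the untreated ones in CEM and DND41, and the groups overlapped in 697. PDK3 had the second largest mean fall of the members given a mean (log2 fold change -1.13 ± 0.077, adjusted p = 3e-14) and was called lower in 6 lines (Nalm6, SUPB15, RS411, REH, CEM and DND41), from -1.82 ± 0.18 in SUPB15 to -0.45 ± 0.12 in Nalm6 (adjusted p = 2.3e-06 to 0.023). The Nalm6 call was lost without untreated B, untreated C, treated A, treated B or treated C (log2 fold change -0.49 to -0.41, adjusted p = 0.06 to 0.1). SUPB15 lay below the other lines with a log2 difference of -0.79 ± 0.23 and 697 above them with a log2 difference of 0.86 ± 0.21 (interaction adjusted p = 0.0014). In 697 PDK3 was not called (log2 fold change -0.40 ± 0.25, adjusted p = 0.42).

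PDK1 in Nalm6 stood at 51.4, 43.4 and 67.4 CPM untreated and 33.7, 34.4 and 35.9 CPM treated, and in SUPB15 at 61.3, 58.4 and 54.4 untreated and 56.9, 60.7 and 61.5 treated. In RS411 the PDK1 CPM were 38.3, 38.0 and 35.7 untreated and 39.0, 38.6 and 38.1 treated, and in REH 64.3, 89.0 and 115 untreated and 28.9, 38.3 and 43.7 treated. The treated PDK1 values all lay below the untreated ones in Nalm6 and REH, and the groups overlapped in SUPB15 and RS411. PDK1 read 144, 148 and 104 CPM in untreated 697 and 67.8, 64.3 and 67.6 CPM in treated 697. For PDK1, CEM gave 79.9, 104 and 126 CPM untreated and 42, 57.9 and 52.6 CPM treated, and DND41 37.9, 79.3 and 92.2 untreated and 24.7, 28.5 and 26.7 treated. Treated libraries for PDK1 all lay below the untreated ones in 697, CEM and DND41. PDK1 fell in the mean response (log2 fold change -0.75 ± 0.081, adjusted p = 1.9e-09) and was called lower in 5 lines (Nalm6, REH, 697, CEM and DND41), from -1.35 ± 0.26 in DND41 to -0.61 ± 0.15 in Nalm6 (adjusted p = 0.00031 to 0.046). The Nalm6 call was lost without untreated C, treated A, treated B or treated C (log2 fold change -0.62 to -0.43, adjusted p = 0.052 to 0.065), and the 697 call without untreated 2, untreated 3, treated 1, treated 2 or treated 3 (log2 fold change -1.17 to -0.92, adjusted p = 0.056 to 0.29). SUPB15 and RS411 lay above the other lines with log2 differences of 0.92 ± 0.23 and 0.93 ± 0.23, and DND41 below them with a log2 difference of -0.75 ± 0.23 (interaction adjusted p = 0.00072). In SUPB15 and RS411 PDK3 was called lower and PDK1 was not called, and the difference between the kinases was not tested. The PDK3 share of the summed kinase level per kilobase was 32.1% ± 2.32 untreated and 13.6% ± 0.909 treated in SUPB15 and 41.4% ± 0.777 untreated and 20.8% ± 1.98 treated in RS411, and 33.8% ± 2.71 untreated and 34.3% ± 3.19 treated in REH.

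PDK2 fell in the mean response (log2 fold change -0.52 ± 0.063, adjusted p = 2.1e-08) and was called lower in 4 lines (Nalm6, SUPB15, REH and DND41), from -0.87 ± 0.23 in DND41 to -0.50 ± 0.14 in Nalm6 (adjusted p = 0.0036 to 0.031). The Nalm6 call of PDK2 was lost without untreated B, untreated C, treated A, treated B or treated C (log2 fold change -0.54 to -0.40, adjusted p = 0.055 to 0.13), and the DND41 call without untreated B, untreated C, treated B or treated C (log2 fold change -0.92 to -0.76, adjusted p = 0.051 to 0.11).

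The complex that these kinases act on had smaller fold changes in the mean response, though not in every line. PDHA1 and PDHB encode its E1 subunits, the first being the kinases' substrate, and DLAT its E2 core. PDHA1 in Nalm6 stood at 142, 108 and 127 CPM untreated and 102, 109 and 113 CPM treated, and in SUPB15 at 145, 101 and 108 untreated and 75.6, 88.8 and 92.4 treated. In RS411 the PDHA1 CPM were 156, 123 and 110.2 untreated and 93.8, 112 and 111 treated, and in REH 90.1, 101 and 117 untreated and 99.1, 105 and 117 treated. The treated PDHA1 values all lay below the untreated ones in SUPB15, and the groups overlapped in Nalm6, RS411 and REH. PDHA1 read 218, 111 and 116 CPM in untreated 697 and 134, 131 and 117 CPM in treated 697. For PDHA1, CEM gave 79.4, 87.0 and 99.4 CPM untreated and 82.6, 84.1 and 84.3 CPM treated, and DND41 109, 73.9 and 85.9 untreated and 99.5, 92.0 and 90.2 treated. For PDHA1 the treated and untreated groups overlapped in 697, CEM and DND41. PDHA1 was not called in the mean response (log2 fold change -0.16 ± 0.068, adjusted p = 0.055) or in any line. It was called under scaling by total count alone (log2 fold change -0.21, adjusted p = 0.022).

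PDHB in Nalm6 stood at 71.7, 80.8 and 83.9 CPM untreated and 74.9, 81.7 and 78.2 CPM treated, and in SUPB15 at 88.3, 103 and 106 untreated and 69.9, 81.8 and 90.1 treated. In RS411 the PDHB CPM were 85.8, 104 and 95.7 untreated and 80.8, 94.9 and 92.5 treated, and in REH 44.1, 52.5 and 52.9 untreated and 43.6, 54.0 and 52.8 treated. For PDHB the treated and untreated groups overlapped in Nalm6, SUPB15, RS411 and REH. PDHB read 110.2, 106 and 105 CPM in untreated 697 and 128, 132 and 106 CPM in treated 697. For PDHB, CEM gave 90.1, 94.5 and 102 CPM untreated and 82.1, 82.1 and 81.6 CPM treated, and DND41 104, 106 and 115 untreated and 70.7, 76.1 and 71.9 treated. Treated libraries for PDHB all lay below the untreated ones in CEM and DND41, and the groups overlapped in 697. PDHB fell by a small amount in the mean response (log2 fold change -0.14 ± 0.042, adjusted p = 0.0066) and was called lower in 2 lines (CEM and DND41), from -0.54 ± 0.11 in DND41 to -0.21 ± 0.076 in CEM (adjusted p = 0.0063 to 0.047). The CEM call was lost without untreated B, untreated C, treated A, treated B or treated C (log2 fold change -0.22 to -0.16, adjusted p = 0.073 to 0.14), and the DND41 call without treated C (log2 fold change -0.53, adjusted p = 0.054). Its mean was -0.07 with no call without DND41, which lay below the other lines with a log2 difference of -0.50 ± 0.12, while 697 lay above them with a log2 difference of 0.38 ± 0.12 (interaction adjusted p = 0.0092). DLAT was not called in the mean response (log2 fold change 0.04 ± 0.038, adjusted p = 0.46) and was called higher in 1 line (REH, log2 fold change 0.27 ± 0.091, adjusted p = 0.0495). That call was lost on leaving out any of the 6 libraries (adjusted p = 0.056 to 0.21).

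In the oxidative pentose phosphate branch, PGD makes NADPH in the cytosol and H6PD in the endoplasmic reticulum. PGD in Nalm6 stood at 171, 172 and 171 CPM untreated and 141, 175 and 163 CPM treated, and in SUPB15 at 202, 167 and 181 untreated and 126, 158 and 154 treated. In RS411 the PGD CPM were 239.6, 212 and 189 untreated and 154, 164 and 174 treated, and in REH 138, 145 and 142 untreated and 158, 137 and 150.4 treated. The treated PGD values all lay below the untreated ones in SUPB15 and RS411, and the groups overlapped in Nalm6 and REH. PGD read 242, 228 and 209.7 CPM in untreated 697 and 247, 226 and 232 CPM in treated 697. For PGD, CEM gave 155, 158 and 176 CPM untreated and 156, 142 and 133 CPM treated, and DND41 204, 129 and 140.0 untreated and 159, 119 and 107 treated. For PGD the treated and untreated groups overlapped in 697, CEM and DND41. PGD fell in the mean response (log2 fold change -0.17 ± 0.052, adjusted p = 0.01), with no call in any line. Without the 5 untreated libraries set apart its mean call was lost (log2 fold change -0.09, adjusted p = 0.12).

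H6PD in Nalm6 stood at 16.8, 24.9 and 23.5 CPM untreated and 27.5, 31.6 and 29.5 CPM treated, and in SUPB15 at 19.9, 36.0 and 31.9 untreated and 26.2, 24.8 and 24.3 treated. In RS411 the H6PD CPM were 56.3, 49.2 and 52.4 untreated and 67.7, 48.0 and 53.3 treated, and in REH 27.6, 34 and 35.7 untreated and 26.4, 26.6 and 25.0 treated. The treated H6PD values all lay below the untreated ones in REH and above them in Nalm6, and the groups overlapped in SUPB15 and RS411. H6PD read 20.0, 85.8 and 59.8 CPM in untreated 697 and 60.7, 63.0 and 81.8 CPM in treated 697. For H6PD, CEM gave 78.7, 82.7 and 78.5 CPM untreated and 67.2, 66.7 and 63.7 CPM treated, and DND41 95, 165 and 153 untreated and 96.0, 105 and 95.6 treated. Treated libraries for H6PD all lay below the untreated ones in CEM, and the groups overlapped in 697 and DND41. H6PD was not called in the mean response (log2 fold change -0.06 ± 0.099, adjusted p = 0.77). It was called higher in 1 line (Nalm6, log2 fold change 0.48 ± 0.14, adjusted p = 0.038) and lower in 1 line (CEM, log2 fold change -0.27 ± 0.074, adjusted p = 0.013). The Nalm6 call was lost without untreated C, treated A, treated B or treated C (log2 fold change 0.43 to 0.53, adjusted p = 0.058 to 0.15), and the CEM call without untreated B or treated C (log2 fold change -0.25 to -0.24, adjusted p = 0.067 to 0.078). Without the 5 untreated libraries set apart H6PD was called lower in the mean response (log2 fold change -0.18, adjusted p = 0.0035). The block gave lower calls in REH (-0.28, adjusted p = 0.035) and DND41 (-0.41, adjusted p = 0.031).

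In the non-oxidative branch, TKT and TALDO1 pass carbon between sugar phosphates and RPIA makes ribose phosphate. TKT in Nalm6 stood at 706, 866 and 795 CPM untreated and 516, 565 and 527 CPM treated, and in SUPB15 at 373, 483 and 482 untreated and 351, 387 and 365 treated. In RS411 the TKT CPM were 298, 357 and 314 untreated and 247, 279.7 and 278 treated, and in REH 225, 242 and 253 untreated and 207, 198 and 195 treated. The treated TKT values all lay below the untreated ones in Nalm6, RS411 and REH, and the groups overlapped in SUPB15. TKT read 239, 620.1 and 492 CPM in untreated 697 and 554, 536 and 526 CPM in treated 697. For TKT, CEM gave 401, 425 and 446 CPM untreated and 343, 303 and 319 CPM treated, and DND41 292, 284 and 309.6 untreated and 194, 193 and 166 treated. Treated libraries for TKT all lay below the untreated ones in CEM and DND41, and the groups overlapped in 697. TKT fell in the mean response (log2 fold change -0.31 ± 0.064, adjusted p = 0.00015) and was called lower in 3 lines (Nalm6, CEM and DND41), from -0.65 ± 0.12 in DND41 to -0.39 ± 0.091 in CEM (adjusted p = 0.0049 to 0.02), and with the block in REH (-0.22, adjusted p = 0.027). The Nalm6 call was lost without untreated B, untreated C, treated A, treated B or treated C (log2 fold change -0.56 to -0.46, adjusted p = 0.057 to 0.094). 697 lay above the other lines with a log2 difference of 0.67 ± 0.18, although the interaction of TKT over all lines was not called. In 697, untreated 1 was the lowest TKT library, and without the 5 untreated libraries set apart the difference was 0.41, adjusted p = 0.013.

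TALDO1 in Nalm6 stood at 112, 110.4 and 119 CPM untreated and 105, 106 and 112 CPM treated, and in SUPB15 at 156, 165 and 169 untreated and 105, 117 and 119 treated. In RS411 the TALDO1 CPM were 135, 158 and 133 untreated and 96.4, 109.6 and 111 treated, and in REH 114, 141 and 145 untreated and 125, 128 and 133 treated. The treated TALDO1 values all lay below the untreated ones in SUPB15 and RS411, and the groups overlapped in Nalm6 and REH. TALDO1 read 76.2, 106 and 93.0 CPM in untreated 697 and 110.0, 112 and 99.1 CPM in treated 697. For TALDO1, CEM gave 106, 129 and 139 CPM untreated and 98.3, 102 and 104 CPM treated, and DND41 177, 132 and 175 untreated and 143, 111 and 127 treated. Treated libraries for TALDO1 all lay below the untreated ones in CEM, and the groups overlapped in 697 and DND41. TALDO1 fell in the mean response (log2 fold change -0.21 ± 0.047, adjusted p = 0.00031) and was called lower in 3 lines (SUPB15, RS411 and CEM), from -0.54 ± 0.11 in SUPB15 to -0.28 ± 0.096 in CEM (adjusted p = 0.0077 to 0.04). The SUPB15 call was lost without treated B (log2 fold change -0.56, adjusted p = 0.054). The RS411 call was lost without untreated B, untreated C, treated A, treated B or treated C (log2 fold change -0.47 to -0.36, adjusted p = 0.063 to 0.16). The CEM call was lost without untreated B, untreated C, treated A, treated B or treated C (log2 fold change -0.30 to -0.20, adjusted p = 0.075 to 0.13). 697 lay above the other lines with a log2 difference of 0.51 ± 0.13 (interaction adjusted p = 0.017), and the block gave a lower call in DND41 (-0.31, adjusted p = 0.032). RPIA was not called in the mean response (log2 fold change 0.10 ± 0.064, adjusted p = 0.25) and was called higher in 1 line (REH, log2 fold change 0.41 ± 0.12, adjusted p = 0.028). The RPIA call was lost without untreated A, untreated B, treated B or treated C (log2 fold change 0.34 to 0.43, adjusted p = 0.065 to 0.13).

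The lines did not respond alike. The interaction of treatment and line was called for 16 of the 34 members, against 19.4% of all genes. A line's response differed from the mean of the other 6 in 24 cases (10.1% of the members' tests, against 3.57% over all genes). Of these 697 held 9 (against 9.11% of all genes), 8 of them higher than the other lines (GPI, PFKM, LDHB, PDK3, PDHB, TKT, TALDO1 and SLC2A3) and HK1 lower. DND41 held 7 (5.95% of all genes), all lower (HK2, PGM1, PFKL, PFKM, PKM, PDK1 and PDHB). SUPB15 held 4 (3.03%), RS411 held 2 (1.01%), and Nalm6 and REH held 1 each (2.51% and 2.25%). CEM held 0 (1.17% of all genes), with 5 at an unadjusted p under 0.05 in edgeR and 3 called by DESeq2. Without the 5 untreated libraries set apart there were 37 cases (15.5%, against 7.17% over all genes), and 1 of the 24 was lost, TALDO1 in 697 (log2 difference 0.40, adjusted p = 0.053). Without the 3 treated libraries, 6 of the 24 were lost. PDK1 was lost in SUPB15 (log2 difference 0.85, adjusted p = 0.1), RS411 (0.90, adjusted p = 0.16) and DND41 (-0.78, adjusted p = 0.053), and PDK3 in SUPB15 (-0.77, adjusted p = 0.17). SLC2A3 was lost in REH (-0.98, adjusted p = 0.056), and ENO2 in SUPB15 turned from 6.53 to -0.78, adjusted p = 1. In 697, where untreated 1 was the lowest untreated library for 22 of 33 members, the 11 members called lower without that library were ENO2, HK1, HK2, LDHA, PDK1, PDK3, PFKM, PFKP, PGAM1, PGM1 and SLC2A1.

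The untreated levels differed between lines for 34 of 34 members, against 86.7% of all genes. The sample numbers of Nalm6, SUPB15 and RS411 form a block apart from those of REH, 697, CEM and DND41. Level differences between lines of unlike blocks cannot be told apart from a difference between the blocks. Levels per kilobase of exon (CPM per kb, mean ± SD, n = 3) let genes be set side by side. GAPDH had the highest level of the 34 in 6 of 7 lines, between 1114 in RS411 and 2741 in CEM, and ENO1 was the highest in DND41. ENO1 ran from 579.7 in SUPB15 to 2676 in DND41. PGK1 ran from 81.7 ± 16.2 in RS411 to 615 ± 331 in DND41 and LDHA from 186 ± 72.1 in Nalm6 to 756 ± 347 in 697. The LDHA mean of 697 includes untreated 1, a library set apart, at 3382 CPM against 1982 and 1369.8 CPM in the others. CEM (613 ± 205) and DND41 (579 ± 230.1) came next for LDHA, and the order without the libraries set apart was not tested. PGD (75.0 to 120.2), DLAT (22.8 to 36.7) and LDHB (537 to 869.7) had the smallest ratios of the highest to the lowest line (1.60, 1.61 and 1.62).

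Several isozymes differed widely between the untreated lines. HK1 was at 1.48 ± 0.345 CPM per kb in SUPB15 and 50.5 ± 11.1 in CEM, which also had the lowest HK2 (8.46 ± 2.78). ALDOC was at 2.63 ± 1.06 in CEM, 4.33 ± 2.54 in DND41 and 90.6 ± 43.2 in 697. PFKM was lowest in the T-cell lines, at 5.29 ± 0.315 in CEM and 7.33 ± 1.28 in DND41, and stood at 31.8 ± 3.52 in Nalm6. PFKP was the leading phosphofructokinase of CEM (75.7 ± 15.6, against 45.4 ± 3.79 for PFKL). PFKL was that of SUPB15 (126 ± 28.8, against 31.0 ± 1.03 for PFKP). SLC16A3 reached 14.1 ± 6.45 in CEM and 2.70 ± 1.25 in DND41 and stayed under 1 in the other lines. ENO2 was at 25.2 ± 7.44 in CEM and 0.0218 ± 0.00659 in SUPB15. PDK2 was lowest in 697 (1.13 ± 0.35), whose PDK1 was the highest of the lines (9.26 ± 1.70). SLC2A3 was lowest in 697 (2.38 ± 0.149), the line of its largest rise, and highest in DND41 (13.9 ± 6.84).

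**Figure D4:**
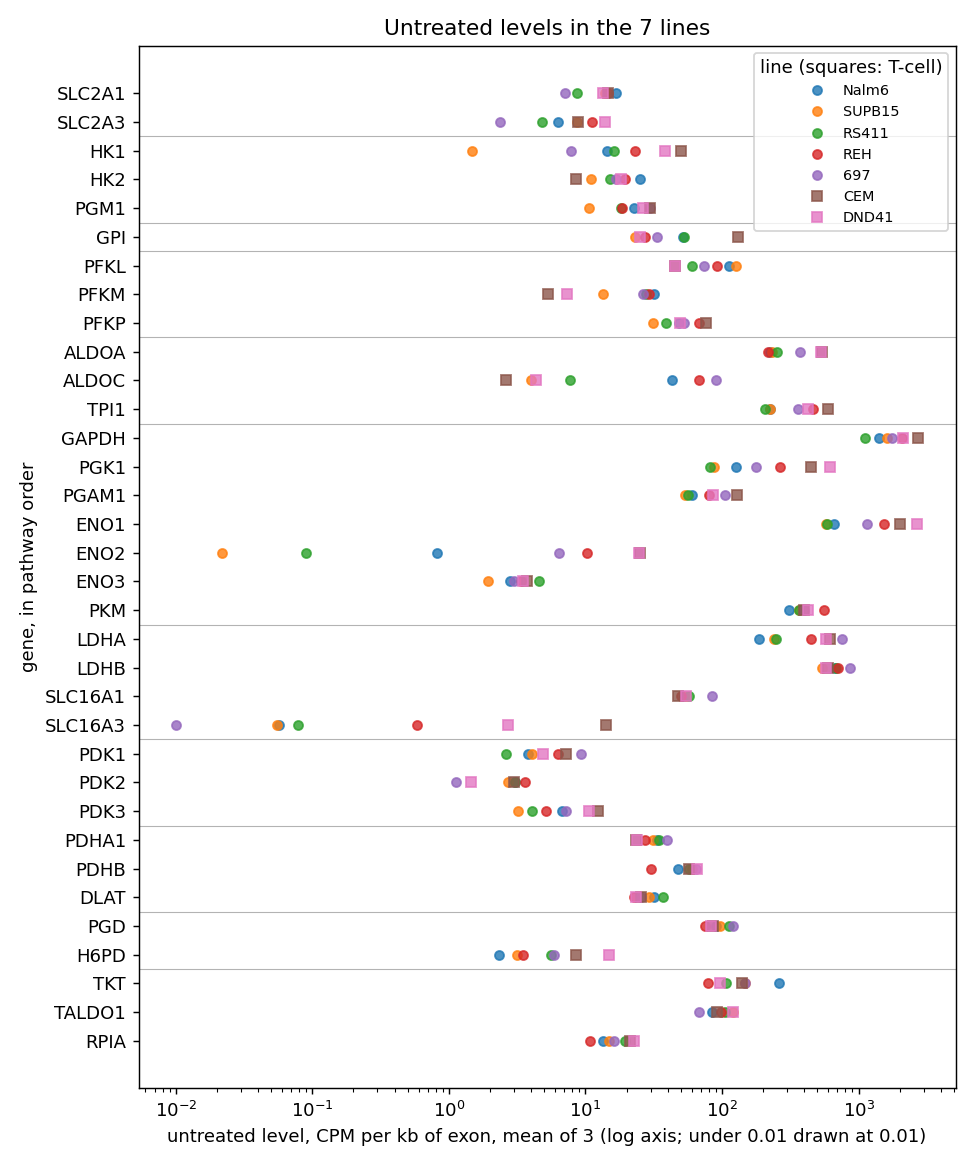
Untreated level of each member (rows, in pathway order) in CPM per kilobase of exon on a log axis, mean of 3 libraries, with circles for the B-cell precursor lines and squares for the T-cell lines. HK1, ALDOC, ENO2 and SLC16A3 spread most between lines, and GAPDH, ENO1, LDHB and PKM lie to the right in every line.

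A list of 68 other genes of these pathways was read beside the members, of which 50 were tested in the mean response. Of these, 9 were called higher and 10 lower, with a median log2 fold change of 0.05, against 17.8% and 19.6% of all genes and a median of -0.02, so the shares called were near the background. PFKFB4, which makes the allosteric activator of phosphofructokinase, fell most (log2 fold change -3.16 ± 0.26, adjusted p = 3.6e-12), and PFKFB3, its relative, fell too (log2 fold change -0.57 ± 0.084, adjusted p = 9.7e-07). PCK2, the mitochondrial enzyme that makes phosphoenolpyruvate and a known target of the amino acid response factor ATF4, rose (log2 fold change 1.65 ± 0.12, adjusted p = 7.6e-14) and was called higher in all 7 lines, from 0.90 in Nalm6 to 2.60 in 697. TXNIP, which lowers glucose uptake, rose (log2 fold change 0.74 ± 0.16, adjusted p = 0.00025) and was called higher in 4 lines. The log2 fold changes of TXNIP ran from -0.29 in Nalm6 to 1.73 in SUPB15 (interaction adjusted p = 0.036). SLC2A4, the insulin-regulated transporter GLUT4, fell (log2 fold change -1.56 ± 0.31, adjusted p = 0.00011). It passed the count filter in only 4 lines, from -2.18 in RS411 to -0.86 in Nalm6, and was called lower in 2. Its mean over the 7 lines thus takes in lines where its counts were too low to be tested. The lactate transporter SLC16A7 was called higher in the mean response, and its fold changes in the 6 lines tested ran from -0.46 in Nalm6 to 0.47 in DND41, 3 of them negative. In REH it was not tested, and its CPM were 0 in the 3 untreated libraries and 1.25, 0.018 and 0 in the treated ones, so the fitted mean depends on the prior count and is not given. Its mean call was lost without the 3 treated libraries set apart, REH A among them (adjusted p = 0.34). The calls of PFKFB1 (log2 fold change 0.62 ± 0.24, adjusted p = 0.035) and PGAM4 (log2 fold change -0.59 ± 0.20, adjusted p = 0.019), which shares reads with PGAM1, both under 1 CPM in every library, were lost there as well (log2 fold change 0.62, adjusted p = 0.057, and log2 fold change -0.47, adjusted p = 0.063). PFKFB1 passed the count filter in only 2 lines and PGAM4 in only 1 (CEM). Their means, too, take in lines where their counts were too low to be tested. The list holds 8 regulators of these pathways, TXNIP among them. MLX, a partner of glucose-sensing factors, rose (log2 fold change 0.36 ± 0.059, adjusted p = 5.9e-06) and was called higher in 5 lines. ARRDC4, a relative of TXNIP, was called higher in the mean response (log2 fold change 0.33 ± 0.11, adjusted p = 0.013), with 3 lines called higher and 1 lower (interaction adjusted p = 8.9e-08). The mean call of ARRDC4 was lost without SUPB15, REH or CEM (log2 fold change 0.06, 0.24 and 0.11, adjusted p = 0.89, 0.095 and 0.59). ARNT, the partner of HIF1A, fell (log2 fold change -0.53 ± 0.046, adjusted p = 1.3e-11), with negative values in 7 of 7 lines, and was called lower in 4 (interaction adjusted p = 0.0015). MLXIP was called lower in the mean response (log2 fold change -0.20 ± 0.07, adjusted p = 0.022) and in 1 line, and its mean call was lost without Nalm6, RS411, REH or DND41 (log2 fold change -0.17 to -0.13). HIF1A (log2 fold change 0.07 ± 0.071, adjusted p = 0.57), MYC (log2 fold change -0.04 ± 0.066, adjusted p = 0.78) and EPAS1 (log2 fold change -0.16 ± 0.098, adjusted p = 0.24) were not called in the mean response. HIF1A was called higher in it without the 5 untreated libraries set apart (log2 fold change 0.22, adjusted p = 2.8e-05) and without 697 untreated 1 alone (log2 fold change 0.15, adjusted p = 0.016). EPAS1 was called lower without Nalm6 (log2 fold change -0.25, adjusted p = 0.046). In single lines HIF1A was called higher in 1, MYC lower in 1 and EPAS1 lower in 2.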

How the data were processed

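Total RNA of 42 libraries (7 lines, untreated or L-asparaginase, 3 per group) was sequenced. The authors deposited 1 table for each line with unnormalized counts (whole numbers of reads) for gene symbols, and the submitters' processing notes name genome build hg19. Aligner, counter, annotation and strand setting: not given in the sources used here. Overlapping and antisense genes therefore cannot be told apart. The members, the other gene lists and the tests were chosen with earlier results of these data known.

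The tables were joined on symbol (50648 genes). Between 26 and 28 symbols per table had become dates, and 2 repeated ones (at most 0.000949% of a library) were left out. Columns of 697 carry replicate numbers; those of the other lines carry letters that no label mentions. Each line's 6 libraries, and all 42 with 1 coefficient per group, were fitted with edgeR 4.0.16 in R 4.3.3 (limma 3.58.1; TMM, filterByExpr with a minimum count of 10, glmQLFit, glmQLFTest, Benjamini-Hochberg over all genes tested), after tests on simulated data. The median depth was 40.28 M counts, so levels well under 1 CPM are imprecise. The SE is the absolute log2 fold change over the root of F. Levels per kilobase used exon unions of protein-coding transcripts (GENCODE v29, GRCh38), while the counts rest on hg19. Near-identical copies held at most 3.36% of a member's count (PGAM1). Alternatives were DESeq2 1.42.0, other scalings, no filter, the replicate block, single libraries or lines left out, and the libraries set apart left out. Every library's values were printed for the members with the largest absolute mean log2 fold changes of each step (up to 2) and the 6 with the widest range over lines. Of the other pathway genes, the 8 with the largest mean change among those called, and any called in all 7 lines, were named; the 8 regulators of that list were added after their values were seen.

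Letters or numbers were taken to pair libraries where every same-letter correlation of deviations from group means exceeded 0.1. The lowest was 0.053 in Nalm6 and -0.075 in 697, which were taken as unpaired. It was 0.153 in SUPB15, 0.101 in RS411, 0.331 in REH, 0.168 in CEM and 0.35 in DND41, which were taken as paired. Correlations between different letters reached 0.238 in RS411, above its lowest same-letter value, so its pairing is doubtful. In the other lines taken as paired, different letters reached 0.109 (SUPB15), -0.012 (REH), -0.007 (CEM) and 0.279 (DND41), below their lowest same-letter values.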

Additional observations from a re-analysis of the deposited data

Results flagged for a closer look

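The response to L-asparaginase differed between the 7 lines for 16 members by the interaction term of the model over all libraries (adjusted p under 0.05). The adjusted p was 7.7e-08 for SLC2A3, with the highest log2 fold change in 697 and no higher call in REH or Nalm6. In glucose trapping and the early steps it was 0.0003 for HK2, 0.0012 for HK1, 0.0043 for PGM1, 0.0098 for PFKM, 0.014 for PFKL and 0.015 for GPI. For the pyruvate dehydrogenase kinases it was 0.00072 for PDK1 and 0.0014 for PDK3, and for the PDHB subunit 0.0092. Later steps gave 0.018 for PKM, 0.02 for LDHB and 0.017 for TALDO1, and the lactate transporter SLC16A1 gave 0.00042. SLC16A3 gave 0.033, with no count in any 697 library. ENO2 gave 0.0028, with SUPB15 above the other lines by 6.53 on the log2 scale, where treated SUPB15 C read 6.61 CPM and the other SUPB15 libraries 0 to 0.0874 CPM.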

How the results depend on the processing

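Over the single libraries left out, the mean response kept 23 to 26 members lower and 1 higher, the interaction 13 to 21, and the untreated level 34. Of the T-cell lines, CEM had 21 to 25 members lower and DND41 14 to 25. In the other lines the lower count was 11 to 18 (REH), 5 to 18 (SUPB15), 5 to 12 (Nalm6), 3 to 17 (RS411) and 0 to 11 (697). The higher count was 1 to 3 in SUPB15, 0 to 1 in each of Nalm6, REH and DND41, 0 in CEM, and 1 in each fit of RS411 and 697. With the replicate block, pairing libraries by letter or number, REH had 23 lower, Nalm6 2 higher, DND41 1 higher and 697 0 lower; letters or numbers did not pair the libraries of Nalm6 and 697, so those counts rest on a shared name only. DESeq2 called 2 higher in SUPB15, 1 in REH and 1 in DND41, and 5 lower in 697. Without a filter there were 2 higher in SUPB15, 1 in REH and 1 in DND41. REH had 1 higher with RLE or upper quartile factors and 0 with the total count only, which moved the median of all REH genes to -0.14. Without the 5 untreated libraries set apart, 3 were higher in SUPB15, 17 lower in RS411, 11 lower in 697, and 37 departures of a line from the others were called. Without the 3 treated libraries, 7 were lower in SUPB15, 4 in RS411, and 1 was higher in REH. The cause of these changes was not tested.

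Directions turned for members near 0. ENO3 had a mean of -0.04 without the 5 untreated libraries. H6PD had 0.01 without the line DND41 and, over single libraries left out, -0.11 to 0.00 (the latter without 697 untreated 2). SLC2A1 in 697 was 0.09 with the block and -0.53 to 0.14 over single libraries left out (0.14 without untreated 2, 0.13 without untreated 3). On the same basis SLC2A3 was -0.21 to 0.04 in Nalm6 (0.04 without treated B) and -0.08 to 0.20 in CEM (-0.08 without untreated A, -0.04 without treated B, -0.02 without treated C). LDHA in Nalm6 was -0.44 to 0.12 (0.12 without untreated C). The mean of MYC was 0.01 without Nalm6, 0.02 without CEM and -0.07 to 0.00 over single libraries left out (0.00 without REH untreated C), and that of HIF1A was -0.00 without SUPB15. Without the 3 treated libraries the difference of SUPB15 from the other lines for ENO2 was -0.78. By longest transcript in place of exon union, an alternative chosen after seeing the data, PFKP (93.3 CPM per kb) and PFKL (92.5) of untreated REH changed order. Depth limits SLC16A3 and ENO2, which were at or near 0 in several lines.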
